A study of Homo sapiens with 18 samples.

Results

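The red cell membrane, its protein skeleton and the proteins that carry blood group antigens were followed as 1 named list of 38 genes in RNA-seq of HUDEP-2 cells, an immortalized human erythroid progenitor line made from umbilical cord blood. The 38 genes were taken by symbol, all 38 were among the 35616 genes in the deposited expression table, and all 38 passed the filter on low values, as did 12005 genes in all. The study compared the wild-type line (WT) with a line labelled as a knockout of the beta-globin gene HBB (HBBko), each undifferentiated, after 48 h of differentiation and after 5 days of differentiation, with 3 libraries per group and 18 in all. The labels speak of triplicates without naming separate cultures, so p-values measure the spread between these libraries, which may be technical. They do not say whether HBBko is 1 clone, how the gene was disrupted, or which medium induced differentiation.

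An erythroid precursor builds a membrane that can deform and recover. A mesh of spectrin and short actin filaments lies under the lipid bilayer and is tied to it at 2 kinds of complexes, the first built on ankyrin and the anion exchanger band 3, the second on the actin junctions with their capping proteins, adducins and glycophorin C. The same bilayer holds channels and transporters for water, glucose, urea, nucleosides and ions, and many of these proteins carry the antigens by which blood groups are defined. Most of the genes are induced as erythroblasts mature, and the comparison of the 2 lines asks what differs where HBB is disrupted.

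Levels are given as scaled TPM, a length-corrected relative abundance of transcripts after a scaling between libraries that the authors applied, always for replicates 1, 2 and 3 in that order, and fold changes are on the log2(scaled TPM + 1) scale with the standard error (SE) of a limma fit and a Benjamini-Hochberg adjusted p over 12005 genes. A gene is said to be higher, lower, risen or fallen where that p was under 0.05. The tables hold no read counts, so the depth behind a value is unknown. HBB averaged 15782, 111681 and 439258 in undifferentiated, 48 h and 5 d WT cells and 4808, 23097 and 70806 in HBBko cells, and every HBBko library lay below every WT library of its stage, which is the direction of the labels. The columns of the table name the 2 lines by other words than the sample labels and were matched by those names. Globin genes held 2.29 to 3.84%, 20.2 to 24.7% and 50.5 to 52.1% of the summed values in WT libraries of the 3 stages and 1.65 to 1.8%, 13 to 13.7% and 38.7 to 39.9% in HBBko libraries. WT undifferentiated replicate 3 and WT 48 h replicate 3 had the highest globin shares of their groups, and where leaving one of them out ended a genotype call at its stage or moved a called value by over 1.5 times, the value without it is given. Mitochondrial genes held 9.75 to 11.4%, 5.04 to 5.72% and 1.34 to 1.46% of the summed values in WT libraries and 10.1 to 10.4%, 7.18 to 7.79% and 2.29 to 2.97% in HBBko libraries. The part of the globin and mitochondrial shares in the genotype differences was not tested. All 9 erythroid markers checked were at 1 or more in every library. Of the markers of other cells, 2 of 8 for megakaryocytes, 1 of 9 for myeloid cells and none of the lymphoid or stromal ones passed the filter, and PF4, PPBP, CD3E, CD2, MS4A1 and CLC were at 0 in every library. The summed level of 7 mast cell, basophil and eosinophil genes was 363 to 490 in undifferentiated WT and 599 to 691 in undifferentiated HBBko libraries, and 11.7 to 37.7 in all later ones. These genes did not move together. Of the 5 that passed the filter, 2 were higher and 1 lower in undifferentiated HBBko cells, beside 20.9% and 22.3% of all genes tested. Whether such cells were present, and their part in the undifferentiated differences, was not tested.

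The list covered a wide range of levels. At 5 days in WT cells the highest of the 38 were SLC4A1, the band 3 anion exchanger, at 3208 ± 30.6 scaled TPM (mean ± SD, n = 3), BSG, the basigin glycoprotein of the Ok blood group, at 2030.1 ± 77.3, GYPC, the glycophorin of the actin junction, at 1957 ± 42.3, SLC2A1, the glucose transporter, at 1545 ± 75.9, RHAG, the Rh-associated glycoprotein, at 1486 ± 72.7, and DMTN, the actin-bundling protein dematin, at 1445 ± 69.7. The lowest were BCAM, the Lutheran adhesion glycoprotein, at 1.9 ± 0.684 and ABCG2, the transporter of the Junior blood group, at 8.54 ± 1.19. Summed over the list, the 38 genes held 0.486 to 0.556% of all values in undifferentiated WT libraries, 0.823 to 0.894% at 48 h and 1.25 to 1.3% at 5 days. In HBBko libraries the sums were 0.446 to 0.455%, 0.772 to 0.789% and 1.43 to 1.5%. With globin genes left out of the denominator the 5 d shares were 2.53 to 2.68% in WT and 2.36 to 2.44% in HBBko libraries, so the order of the 2 lines at 5 days turned with the denominator. In bulk RNA, fewer cells that express a gene and less RNA of it per cell cannot be told apart.

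**Figure D1:**
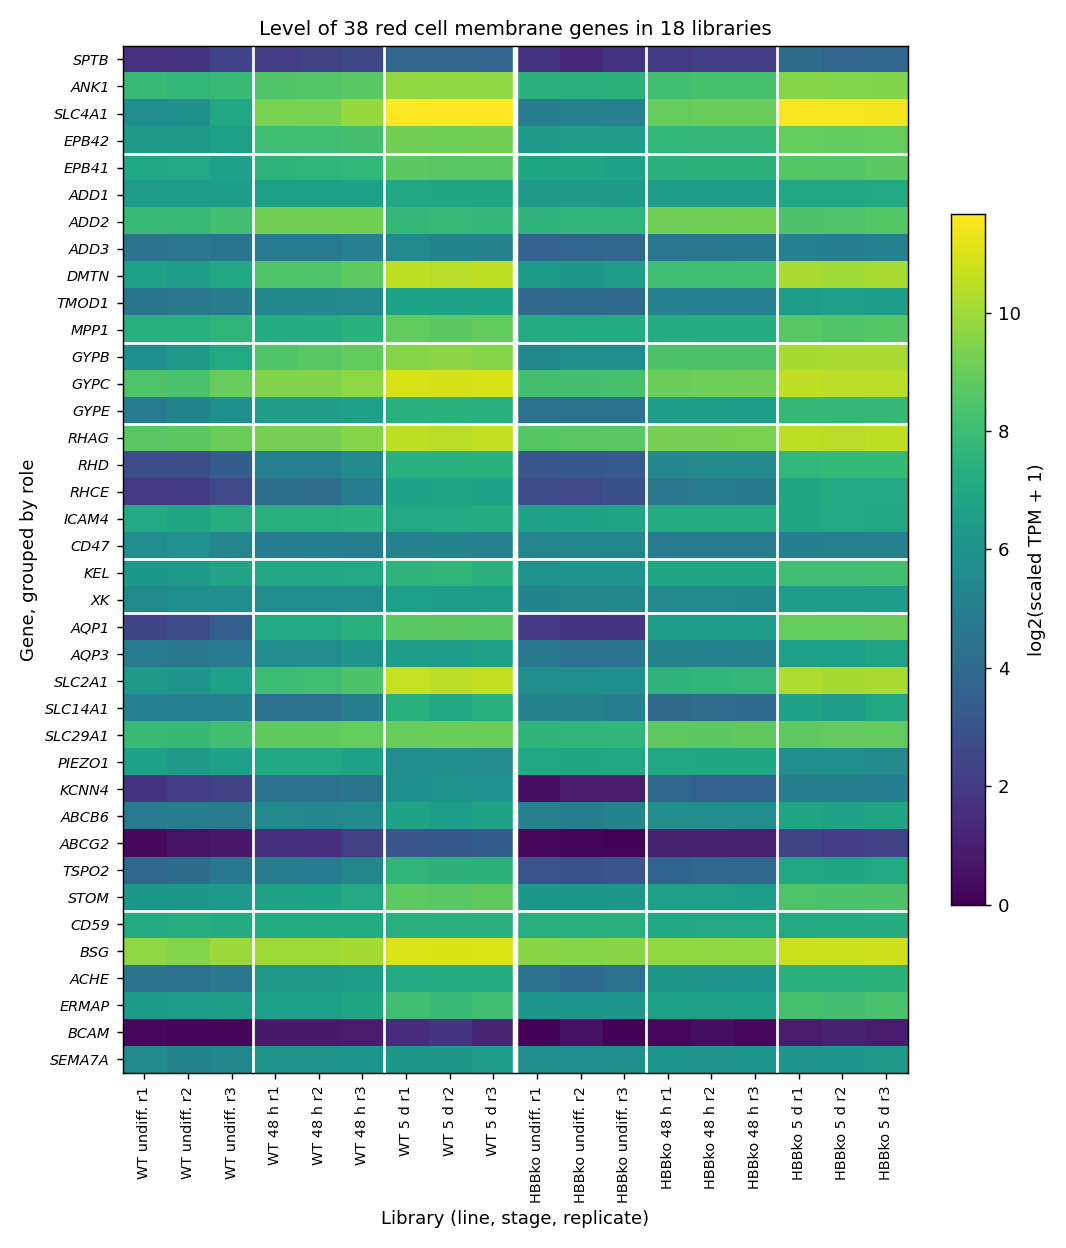
Level of each of the 38 genes (rows, grouped by role) in each of the 18 libraries (columns, WT left and HBBko right, by stage and replicate), as log2(scaled TPM + 1) in colour. SLC4A1 rises from 78.2 to 3208 scaled TPM in WT cells, while BCAM stays at or below 1.9 in every group mean.

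The sequences before the transcription starts are shown for 6 genes, chosen because they stand for the 2 genotype patterns described further on and because at most 30 bases of each window lie in an annotated exon. RefSeq (GRCh38.p14) gave 59 starts for 34 of the 38 genes, and ANK1, SLC4A1, DMTN and XK had none. Each line holds the 250 bases before a start, 5′ to 3′ in the direction of the gene, with matches on either strand to the erythroid GATA motif (AGATAA or TGATAA) and the CACCC-like motif (CCNCNCCC) in capitals. TSPO2 (chr6:41042217-41042466, plus strand), ABCG2 (chr4:88231627-88231876, minus strand) and TMOD1 (chr9:97500930-97501179, plus strand) were lower in HBBko cells at all 3 stages. GYPB (chr4:144019381-144019630, minus strand), GYPE (chr4:143905560-143905809, minus strand) and ERMAP (chr1:42825311-42825560, plus strand) were lower before differentiation and higher at 5 days.
TSPO2: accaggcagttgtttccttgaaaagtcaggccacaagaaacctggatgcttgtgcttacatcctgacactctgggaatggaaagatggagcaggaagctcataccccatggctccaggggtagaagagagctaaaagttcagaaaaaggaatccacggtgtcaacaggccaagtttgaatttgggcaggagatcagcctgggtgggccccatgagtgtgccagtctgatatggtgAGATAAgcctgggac
ABCG2: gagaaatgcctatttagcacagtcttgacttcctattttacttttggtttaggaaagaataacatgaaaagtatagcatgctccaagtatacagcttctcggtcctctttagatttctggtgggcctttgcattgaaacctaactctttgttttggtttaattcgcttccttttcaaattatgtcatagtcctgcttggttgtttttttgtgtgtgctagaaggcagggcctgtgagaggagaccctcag
TMOD1: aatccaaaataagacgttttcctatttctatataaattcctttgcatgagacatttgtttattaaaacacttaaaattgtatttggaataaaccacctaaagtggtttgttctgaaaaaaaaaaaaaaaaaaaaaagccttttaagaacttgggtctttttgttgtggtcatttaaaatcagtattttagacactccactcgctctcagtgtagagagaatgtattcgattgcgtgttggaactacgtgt
GYPB: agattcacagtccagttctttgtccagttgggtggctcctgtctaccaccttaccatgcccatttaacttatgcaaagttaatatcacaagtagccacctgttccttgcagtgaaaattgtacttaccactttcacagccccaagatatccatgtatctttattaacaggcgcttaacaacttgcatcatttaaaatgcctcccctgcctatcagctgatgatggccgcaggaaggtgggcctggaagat
GYPE: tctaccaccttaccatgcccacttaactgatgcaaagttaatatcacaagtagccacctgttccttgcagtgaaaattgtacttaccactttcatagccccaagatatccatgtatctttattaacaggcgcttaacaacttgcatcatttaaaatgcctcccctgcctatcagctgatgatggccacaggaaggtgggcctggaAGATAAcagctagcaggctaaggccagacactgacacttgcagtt
ERMAP: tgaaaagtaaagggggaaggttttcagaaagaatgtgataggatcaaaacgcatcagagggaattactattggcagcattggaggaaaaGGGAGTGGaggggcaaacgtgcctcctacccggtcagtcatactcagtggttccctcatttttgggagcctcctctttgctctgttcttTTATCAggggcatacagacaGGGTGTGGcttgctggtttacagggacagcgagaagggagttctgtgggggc
All but GYPE have further starts in the table, and the windows of TSPO2 and ERMAP shown lie inside the span that RefSeq gives the gene. The GATA match of TSPO2 begins 15 bases before the start, that of GYPE 45 bases and that of ERMAP, on the other strand, 72 bases, and the windows of ABCG2, TMOD1 and GYPB shown hold neither motif. Before other starts of these 3 genes, which are not printed, there are matches: the second window of GYPB has a GATA motif 39 bases before its start, and the second of TMOD1 and 3 further ones of ABCG2 have CACCC-like matches. The windows of GYPB and GYPE shown, those of neighbouring genes at chr4:143995188-144019380 and chr4:143870864-143905559, are identical at 205 of 209 aligned positions (98.1%). A GATA motif stood before at least 1 start of 12 of the 34 genes (35.3%) and of 17.5% of the 27305 genes in the table. A CACCC-like motif stood before 30 of the 34 (88.2%) against 56.4% of all, and both before 9 (26.5%) against 6.54%. A gene with more starts has more windows to hold a match. Counted by start, a GATA motif stood in 22% of the 59 windows of the list and 14.6% of all 35116, a CACCC-like motif in 78% against 53.4%, and both in 16.9% against 3.94%. These are matches of letters in these windows and say nothing of binding.

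Most of the list rose during differentiation in both lines. In the first 48 h, 32 of the 38 genes rose and 2 fell in WT cells, where 64.9% of all genes tested changed (23.5% rose and 41.4% fell). From 48 h to 5 days 33 rose and 3 fell in WT cells, beside 80.2% of all genes (30.8% rose and 49.5% fell). In HBBko cells 32 rose and 3 fell in the first step, beside 65.2% of all genes (25.1% and 40.1%), and 33 rose and 3 fell in the second, beside 79.7% (30.2% and 49.5%). The median change of the 38 was 0.74 and 1.09 on the log2 scale in the WT steps and 0.77 and 1.26 in the HBBko steps, while the medians of all genes were -0.10, -0.20, -0.09 and -0.20. The 2 steps of a line share its 48 h libraries and are not independent of each other. The libraries of the 2 stages did not overlap for 35 of the 38 genes in the first WT step (63.3% of all genes), 38 in the second (84.4%), 35 in the first HBBko step (76.1%) and 36 in the second (84.4%). With each library rescaled to an equal sum, and under 3 other scalings, 26 genes rose and 2 fell in the first WT step under all 5 scalings, 24 and 2 in the second, 29 and 3 in the first HBBko step and 29 and 2 in the second. The share of all genes that did so under all 5 scalings is not given here.

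**Figure D2:**
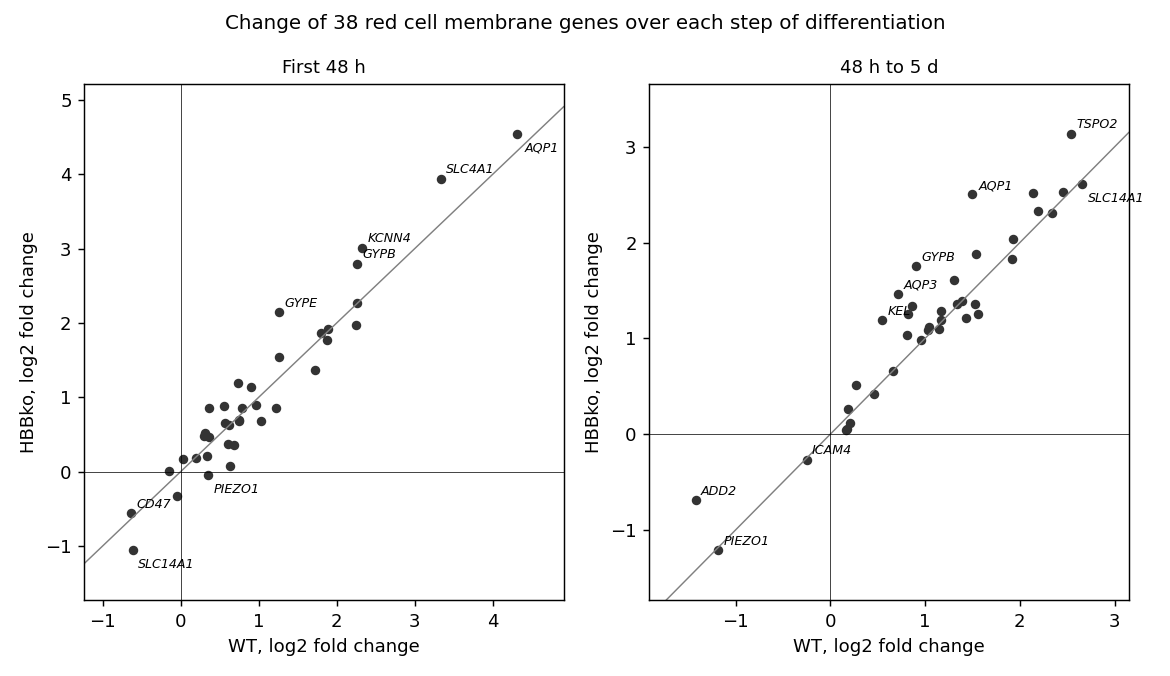
Change of each of the 38 genes (points) over the first 48 h (left) and from 48 h to 5 d (right), as the log2 fold change in WT cells (x axis) and in HBBko cells (y axis); the grey line marks equal changes. AQP1 changed most in the first step (4.31 and 4.55), and ADD2 and PIEZO1 fell in the second in both lines.

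In the fit of all 18 libraries most of the list was lower in the knockout line before differentiation. In undifferentiated cells 24 of the 38 genes were lower in HBBko and 5 higher, with 9 that did not pass the test, where 43.3% of all genes differed (22.3% lower and 20.9% higher). With the undifferentiated libraries fitted alone, 16 of these 29 calls were kept and 13 lost. The authors' deposited table for this stage gave 14 lower and 2 higher, beside 25.0% of all genes listed there. At 48 h 18 were lower and 1 higher, beside 18.7% of all genes (9.21% lower and 9.52% higher). At 5 days 18 were lower and 7 higher, beside 51.3% of all genes (24.8% lower and 26.5% higher). BCAM reached the filter's value of 1 in 5 d libraries alone, 3 of WT and 1 of HBBko, and without it 17 of 37 were lower at each of the last 2 stages. The median difference of the list was -0.30, -0.22 and -0.13 on the log2 scale, beside -0.01, 0.02 and 0.02 for all genes. WT and HBBko libraries did not overlap for 26, 29 and 29 of the 38 at the 3 stages, beside 46.2%, 51.9% and 59.9% of all genes. Without WT undifferentiated replicate 3 the undifferentiated counts were 19 lower and 6 higher, without WT 48 h replicate 3 the 48 h counts were 9 lower and 2 higher, and without both libraries the 3 stages gave 22 and 7, 18 and 3, and 19 and 10. Differences of 2-fold or more on the log2(scaled TPM + 1) scale were 4 in undifferentiated cells (SLC4A1, AQP1, KCNN4 and TSPO2), 1 at 48 h (TSPO2) and 0 at 5 days, all lower in HBBko. Without WT undifferentiated replicate 3 the undifferentiated ones were 2, KCNN4 and TSPO2, while SLC4A1 was at -0.72 (adjusted p = 0.00022) and AQP1 at -0.71 (adjusted p = 1.2e-05). The added 1 shrinks differences of low genes, so the 2-fold count leaves out some called genes whose means lie over 2-fold apart. ABCG2 averaged 1.07 in HBBko and 2.59 in WT cells at 48 h and 3.8 and 8.54 at 5 days. BCAM averaged 0.247 in HBBko and 0.801 in WT cells at 48 h. The share of all genes at 2-fold or more was not counted.

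The split at 5 days depended on the scaling, above all on plain equal sums. With each library rescaled to an equal sum, 21 of the 38 were higher and 2 lower at 5 days, against 7 and 18 with the deposited scaling, and the median of all genes moved from 0.02 to 0.27. The same rescaling at 48 h gave 3 higher and 11 lower, with the median of all genes at 0.14. The shares of all genes called under other scalings are not given here. The counts in this paragraph therefore cannot be set against a background. Under all 5 scalings ADD2, GYPB, GYPE, KEL, ACHE, ERMAP and ABCB6 were higher and KCNN4 and ABCG2 lower at 5 days. Relative to the median of all genes, 21 of the 38 stood below it at 5 days under all 5 scalings, 33 at 48 h and 30 in undifferentiated cells. Above it under all 5 stood 13, 4 and 8 at the same stages. Under any 1 scaling as many of all genes lie below this median as above it. In undifferentiated cells 21 genes were lower and 5 higher under all 5, and at 48 h 11 and 1. Of the 25 calls at 5 days, 25 were kept with globin genes removed before the equal sums, 25 with median-of-ratios scaling and 19 with quantile normalization. Under these scalings 0 calls reversed. With plain equal sums 9 were kept, 7 were lost and 9 reversed. The 7 lost were DMTN, TSPO2, GYPC, SLC2A1, STOM, SLC14A1 and BCAM. So the 5 d differences below are given as values under the deposited scaling, and only the 9 genes named above kept their call under every scaling.

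**Figure D3:**
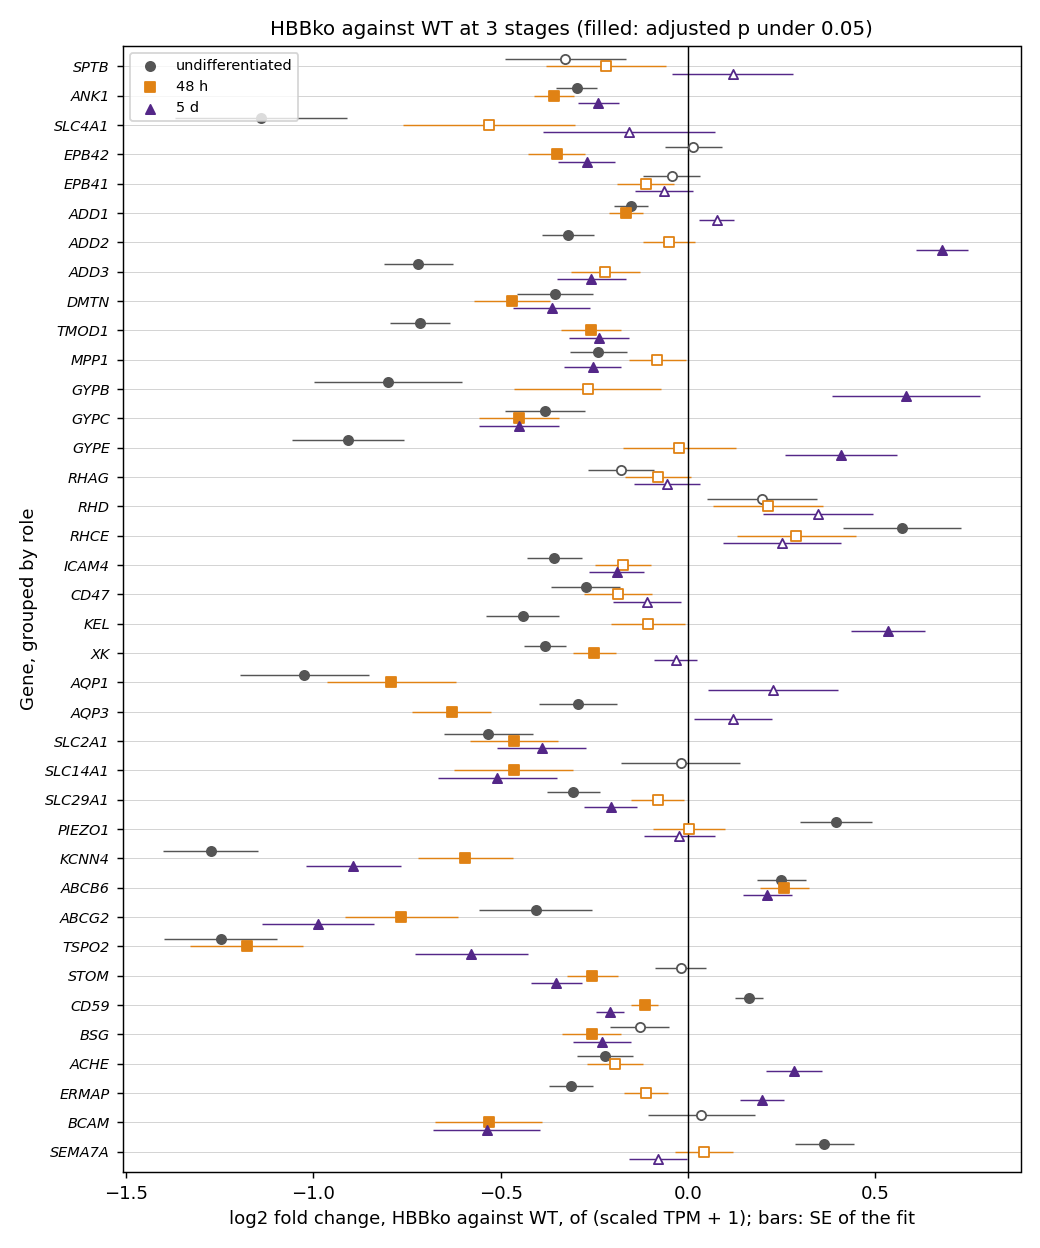
Difference between HBBko and WT cells for each of the 38 genes (rows, grouped by role) at 3 stages, as the log2 fold change of (scaled TPM + 1) with bars of 1 SE of the fit; filled symbols have an adjusted p under 0.05. TSPO2 and KCNN4 lie left of 0 at all 3 stages, while ADD2, GYPB, GYPE and KEL cross from left to right by 5 d.

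Of the ankyrin and band 3 complex, ANK1 was lower in HBBko cells at every stage, while SLC4A1 differed most before differentiation. SLC4A1 (chr17:44248390-44268135), which exchanges chloride for bicarbonate and anchors the skeleton, was at 51.3, 54.9 and 128 in WT against 29.3, 33.5 and 32.7 in HBBko libraries before differentiation. At 48 h SLC4A1 was at 637, 643 and 939.5 in WT against 476, 517 and 517 in HBBko libraries, and at 5 days at 3242, 3182 and 3199 in WT against 2956, 2869.8 and 2805 in HBBko. Replicate 3 was the highest WT library at the first 2 stages, and no WT library overlapped an HBBko library at any stage. The lower level of SLC4A1 in HBBko cells passed the test in undifferentiated cells (-1.14 ± 0.23, adjusted p = 0.00082; -0.72, adjusted p = 0.00022, without WT replicate 3) and not at 48 h (-0.53 ± 0.23, adjusted p = 0.12) or 5 days (-0.16 ± 0.23, adjusted p = 0.6). The fit gives each gene 1 spread for all 6 groups. WT values of SLC4A1 were 78.2 ± 43.5 before differentiation and 3208 ± 30.6 at 5 days (mean ± SD). In the authors' deposited tables SLC4A1 was lower in HBBko cells at all 3 stages (q = 0.023, 0.016 and 0.0015). SLC4A1 rose by 3.33 ± 0.23 and 2.14 ± 0.23 over the WT steps and by 3.94 ± 0.23 and 2.51 ± 0.23 over the HBBko steps.

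ANK1, the ankyrin that ties spectrin to band 3, was at 236, 209 and 231 in WT against 182, 179 and 188 in HBBko libraries before differentiation. ANK1 then stood at 366, 368 and 408 in WT against 281, 304 and 305 in HBBko at 48 h. By 5 days ANK1 stood at 879, 835 and 849 in WT against 748, 717 and 705 in HBBko. The HBBko libraries were the lower ones at all 3 stages, without overlap. The differences were -0.30 ± 0.05, adjusted p = 0.00035, then -0.36 ± 0.05, adjusted p = 0.00025, then -0.24 ± 0.05, adjusted p = 0.0014, and the last turned to 0.10 with equal sums. EPB42, which binds band 3 and ankyrin, was at 77.4, 75.1 and 96.8 in WT against 78.6, 87.9 and 83.8 in HBBko libraries before differentiation and at 260.0, 267 and 301 in WT against 211, 218 and 219 in HBBko at 48 h. At 5 days EPB42 was at 573, 551 and 578 in WT against 479, 457 and 474 in HBBko. The libraries of the 2 lines overlapped before differentiation and were apart later. EPB42 was lower at 48 h (-0.35 ± 0.08, adjusted p = 0.0044) and at 5 days (-0.27 ± 0.08, adjusted p = 0.007; 0.07 with equal sums), and did not pass the test before (0.01 ± 0.08, adjusted p = 0.9). Beta-spectrin, SPTB, passed the genotype test at no stage and averaged 2.93 ± 1.05, 3.97 ± 0.727 and 13.4 ± 0.247 in WT and 2.1 ± 0.546, 3.25 ± 0.285 and 14.7 ± 1.85 in HBBko cells over the 3 stages. Of the words of SPTB transcripts (runs of 31 bases in GENCODE 29), 31.4% also stand in PLEKHG3, which was itself at 0.00165 to 0.0487 scaled TPM over all libraries. The SPTB change of 0.36 in the first WT step had an adjusted p of 0.059, and 0.044 with the replicate number as a block.

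The actin junctions gave 6 of 7 genes lower in undifferentiated HBBko cells, the exception being EPB41, the protein that joins spectrin to actin and glycophorin C. At 48 h 3 were lower, and at 5 days 4 were lower and 1 higher, where 22.3%, 9.21% and 24.8% of all genes tested were lower at the 3 stages. ADD2 (chr2:70656784-70768200), the beta subunit of the adducin that caps the barbed ends of actin filaments, was at 231, 234 and 284 in WT against 193, 205 and 199 in HBBko libraries before differentiation. It was at 604, 604 and 591 in WT against 562, 583 and 592 in HBBko at 48 h and at 214, 239.6 and 218 in WT against 342, 349 and 384 in HBBko at 5 days. ADD2 was lowest in HBBko libraries before differentiation, mixed between the lines at 48 h, and higher in every HBBko library at 5 days. The differences were -0.32 ± 0.07, adjusted p = 0.0014, then -0.05 ± 0.07, adjusted p = 0.67, then 0.68 ± 0.07, adjusted p = 5e-07. Unlike most of the list ADD2 peaked at 48 h: it rose by 1.27 ± 0.07 and fell by 1.42 ± 0.07 in WT cells, and rose by 1.54 ± 0.07 and fell by 0.69 ± 0.07 in HBBko cells.

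ADD3, the gamma adducin, was at 20.8, 23.4 and 22 in WT against 11.8, 13.1 and 14.1 in HBBko libraries before differentiation. ADD3 then stood at 27.3, 26 and 32.8 in WT against 23.2, 24.8 and 25.2 in HBBko at 48 h. By 5 days ADD3 stood at 45.9, 38 and 35.9 in WT against 33.9, 31.7 and 33.5 in HBBko. Its HBBko libraries were lower at each stage without overlap, by the most before differentiation (-0.72 ± 0.09, adjusted p = 1.6e-05), with -0.22 ± 0.09, adjusted p = 0.11 at 48 h and -0.26 ± 0.09, adjusted p = 0.027 at 5 days, the last 0.07 with equal sums. At 5 days the call ended without WT replicate 1, HBBko replicate 2 or HBBko replicate 3 (adjusted p up to 0.17), with a value of -0.16 without WT replicate 1. TMOD1, the tropomodulin that caps the pointed ends, was at 22.3, 24.1 and 29.4 in WT against 14.1, 15.6 and 15.1 in HBBko libraries before differentiation. TMOD1 then stood at 39.3, 41.5 and 46.7 in WT against 34.8, 35.3 and 35.6 in HBBko at 48 h. By 5 days TMOD1 stood at 109, 109 and 107 in WT against 86.7, 95.6 and 92.7 in HBBko. It was lower in HBBko at all 3 stages, with -0.72 ± 0.08, adjusted p = 4.2e-06, then -0.26 ± 0.08, adjusted p = 0.031, then -0.24 ± 0.08, adjusted p = 0.02, and 0.10 at 5 days with equal sums. For 48 h, the call held in 13 of 18 fits with 1 library left out (adjusted p up to 0.17), and at 5 days the call ended without WT replicate 1 or HBBko replicate 1 (adjusted p up to 0.081). Of the 31-base words of TMOD1 transcripts in GENCODE 29, 44.6% also stand in TSTD2, which was itself at 7.29 to 12.5 scaled TPM over all libraries, so the TMOD1 value can depend on how reads were shared out. DMTN was at 101, 85.4 and 122 in WT against 81.2, 74.2 and 83.3 in HBBko libraries before differentiation. DMTN then stood at 356, 346 and 438 in WT against 272, 268 and 278 in HBBko at 48 h. By 5 days DMTN stood at 1479, 1365 and 1492 in WT against 1152, 1063 and 1152 in HBBko. All HBBko values of DMTN lay below all WT values of their stage, with -0.35 ± 0.10, adjusted p = 0.0097, then -0.47 ± 0.10, adjusted p = 0.0041, then -0.36 ± 0.10, adjusted p = 0.0064. Without WT undifferentiated replicate 3 the first of these was -0.23 (adjusted p = 0.057). With equal sums the 5 d value of DMTN was -0.03 and missed the threshold. ADD1, the alpha adducin, averaged 86.3 ± 3.71, 99.3 ± 2.36 and 120.3 ± 3.13 in WT and 77.6 ± 2.07, 88.4 ± 0.726 and 127 ± 7.58 in HBBko cells, and was lower in HBBko in undifferentiated cells (-0.15 ± 0.05, adjusted p = 0.014) and at 48 h (-0.17 ± 0.05, adjusted p = 0.019). Before differentiation the call ended without WT replicate 3 or HBBko replicate 2 (adjusted p up to 0.057), and at 48 h the call ended without WT replicate 3, HBBko replicate 1, HBBko replicate 2 or HBBko replicate 3 (adjusted p up to 0.089). MPP1, a scaffold that binds glycophorin C, averaged 173 ± 23.2, 156 ± 13 and 452 ± 28.5 in WT and 146 ± 2.25, 147 ± 1.42 and 379 ± 16.2 in HBBko cells, and was lower in HBBko in undifferentiated cells (-0.24 ± 0.08, adjusted p = 0.017) and at 5 days (-0.25 ± 0.08, adjusted p = 0.01; 0.08 with equal sums). Before differentiation the call ended without WT replicate 3 or HBBko replicate 2 (adjusted p up to 0.094), with a value of -0.13 without WT replicate 3. EPB41 averaged 118 ± 16, 198 ± 9.83 and 407 ± 14.4 in WT and 114 ± 5.75, 183 ± 4.96 and 389.6 ± 22.8 in HBBko cells and passed the genotype test at no stage.

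The glycophorins did not move together. All 3 were lower in undifferentiated HBBko cells (22.3% of all genes were), and at 5 days GYPC was lower (24.8% of all genes were) while GYPB and GYPE were higher (26.5%). GYPC (chr2:126656158-126696667), which carries the Gerbich antigens, was at 352, 321 and 488 in WT against 287, 286 and 303 in HBBko libraries before differentiation. GYPC then stood at 702, 703 and 833 in WT against 526, 539 and 567 in HBBko at 48 h. By 5 days GYPC stood at 1967, 1909.8 and 1992 in WT against 1493, 1410.3 and 1388 in HBBko. No HBBko library of GYPC reached the lowest WT library of its stage. The differences of GYPC were -0.38 ± 0.11, adjusted p = 0.0084, then -0.45 ± 0.11, adjusted p = 0.0074, then -0.45 ± 0.11, adjusted p = 0.002. Without WT undifferentiated replicate 3 the first of these was -0.20 (adjusted p = 0.024), and without WT 48 h replicate 3 the second was -0.37 (adjusted p = 0.0528). The 5 d value of GYPC was -0.11 with equal sums and missed the threshold.

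GYPB, which carries the S and s antigens, was at 56.5, 78.6 and 133 in WT against 39.4, 52.5 and 52.8 in HBBko libraries before differentiation. At 48 h GYPB was at 364, 401 and 465 in WT against 337, 342 and 337 in HBBko, and at 5 days at 751, 787 and 753 in WT against 1130.0, 1149 and 1153 in HBBko. Every WT library was above every HBBko library at the first 2 stages, and every HBBko library was above every WT library at 5 days. The differences of GYPB were -0.80 ± 0.20, adjusted p = 0.0036, then -0.27 ± 0.20, adjusted p = 0.38, then 0.58 ± 0.20, adjusted p = 0.02, the last at adjusted p = 0.0506 without WT 5 d replicate 1. The first was -0.47 (adjusted p = 0.0087) without WT undifferentiated replicate 3. GYPE, whose sequence before the start is shown beside that of GYPB, was at 27.8, 37.1 and 56 in WT against 18.5, 21.4 and 20.8 in HBBko libraries before differentiation. GYPE then stood at 87.9, 93.3 and 101 in WT against 92, 92.9 and 92.8 in HBBko at 48 h. By 5 days GYPE stood at 166, 172 and 164 in WT against 220.3, 220.1 and 226 in HBBko. Every WT library of GYPE was above every HBBko library before differentiation, the lines overlapped at 48 h, and every HBBko library was above every WT library at 5 days. GYPE differed by -0.91 ± 0.15, adjusted p = 0.00016, then -0.02 ± 0.15, adjusted p = 0.94, then 0.41 ± 0.15, adjusted p = 0.031. The last missed the threshold when any 1 of the 6 libraries at 5 days was left out, with an adjusted p of 0.052 to 0.075. Reads of these 2 genes may be shared: 29.5% of the words of GYPB stand in other genes, and 6.36% of those of GYPE stand in GYPB.

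Of the 5 Rh complex genes, 2 were lower and 1 higher in undifferentiated HBBko cells, 0 passed the test at 48 h, and 1 was lower at 5 days. Of all genes tested 22.3% were lower and 20.9% higher before differentiation, and 24.8% were lower at 5 days. RHAG, needed for the complex to reach the surface, averaged 449 ± 68.6, 661 ± 72 and 1486 ± 72.7 in WT and 393 ± 12.9, 623 ± 17.3 and 1429 ± 72.4 in HBBko cells, and did not pass the genotype test at any stage; with the replicate number as a block the undifferentiated difference of -0.18 had an adjusted p of 0.038 in place of 0.11. RHD, which carries the D antigen, and RHCE, which carries the C and E antigens, lie side by side at chr1:25272486-25330445 and chr1:25362249-25430203, and 30.8% of the words of RHCE stand in RHD, so their split is uncertain. RHD was at 5.81, 5.69 and 9.81 in WT against 7.65, 8.12 and 8.43 in HBBko libraries before differentiation. RHD then stood at 32.5, 32.5 and 47 in WT against 41.1, 43.9 and 43.4 in HBBko at 48 h. By 5 days RHD stood at 169, 176 and 171 in WT against 210.4, 225 and 222 in HBBko. RHCE was at 2.79, 2.96 and 4.95 in WT against 5.76, 5.05 and 6.19 in HBBko libraries before differentiation. RHCE then stood at 17.6, 17.1 and 27.6 in WT against 23.5, 26.1 and 25.4 in HBBko at 48 h. By 5 days RHCE stood at 104, 110.2 and 107 in WT against 119, 134 and 129.8 in HBBko. HBBko libraries were above all WT libraries at 5 days for both genes and before differentiation for RHCE, and the lines overlapped at 48 h. RHCE passed the genotype test in undifferentiated cells (0.57 ± 0.16, adjusted p = 0.0078) and not later (0.29 ± 0.16 and 0.25 ± 0.16). RHD missed it at each stage, with 0.35 ± 0.15, adjusted p = 0.058 at 5 days and 0.028 with the replicate block. Both rose in every step, RHD by 2.26 ± 0.15 and 2.20 ± 0.15 in WT cells and RHCE by 2.25 ± 0.16 and 2.34 ± 0.16.

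Other proteins of the Rh complex went their own ways. CD47, the signal that keeps phagocytes from engulfing red cells, averaged 49.1 ± 9.58, 30.7 ± 0.953 and 35 ± 1.19 in WT and 40.0 ± 1.32, 26.9 ± 0.737 and 32.4 ± 0.794 in HBBko cells; it fell in the first 48 h in both lines (-0.64 ± 0.09 and -0.56 ± 0.09) and was lower in undifferentiated HBBko cells (-0.27 ± 0.09, adjusted p = 0.024), where the libraries overlapped and the call ended without WT replicate 1, WT replicate 2, HBBko replicate 1 or HBBko replicate 3 (adjusted p up to 0.13). The CD47 difference was -0.15 without WT replicate 2 and -0.43 (adjusted p = 3.7e-05) without WT replicate 3. ICAM4, the adhesion protein of the LW blood group, averaged 137 ± 19, 168 ± 3.88 and 141 ± 5 in WT and 106 ± 3.37, 148 ± 1.64 and 123 ± 8.58 in HBBko cells, and was lower in HBBko before differentiation (-0.36 ± 0.07, adjusted p = 0.001) and at 5 days (-0.19 ± 0.07, adjusted p = 0.04; 0.14 with equal sums). At 5 days the call ended without WT replicate 2, WT replicate 3, HBBko replicate 1 or HBBko replicate 3 (adjusted p up to 0.17). Of the words of ICAM4, 94.1% also stand in another gene model, so its value may hold reads of that model. In the Kell complex, KEL (chr7:142941114-142962363), a surface endopeptidase, was at 74.4, 79.3 and 111 in WT against 62.1, 64.2 and 64.9 in HBBko libraries before differentiation. KEL was at 124, 124 and 136 in WT against 119, 119 and 118 in HBBko at 48 h and at 189, 197 and 176 in WT against 269, 268 and 278 in HBBko at 5 days. WT libraries of KEL were the higher ones at the first 2 stages and HBBko libraries at 5 days, without overlap at any of them. The differences of KEL were -0.44 ± 0.10, adjusted p = 0.0018, then -0.11 ± 0.10, adjusted p = 0.5, then 0.53 ± 0.10, adjusted p = 0.00024. The first was -0.27 (adjusted p = 0.00081) without WT undifferentiated replicate 3. XK, the partner to which KEL is bonded, averaged 50.8 ± 4.52, 52 ± 3.36 and 92.1 ± 1.63 in WT and 38.6 ± 0.988, 43.5 ± 0.447 and 90.0 ± 1.21 in HBBko cells, was lower in HBBko in undifferentiated cells (-0.38 ± 0.06, adjusted p = 6.3e-05) and at 48 h (-0.25 ± 0.06, adjusted p = 0.0057), and had a difference of -0.03 ± 0.06 at 5 days.

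Of the 11 transporters and channels 7 were lower and 2 higher in undifferentiated HBBko cells, 8 and 1 at 48 h, and 7 and 1 at 5 days. Of all genes tested 22.3%, 9.21% and 24.8% were lower and 20.9%, 9.52% and 26.5% higher. TSPO2 (chr6:41041386-41044337), an erythroid relative of the mitochondrial cholesterol-binding translocator protein, was at 13.9, 16.2 and 25.2 in WT against 6.8, 6.56 and 7.52 in HBBko libraries before differentiation. TSPO2 was at 28.5, 28.2 and 38.9 in WT against 12.6, 13.6 and 14 in HBBko at 48 h and at 197, 184 and 183 in WT against 123, 119.9 and 134 in HBBko at 5 days. Every HBBko library of TSPO2 lay below every WT library of its stage. The differences were -1.25 ± 0.15, adjusted p = 8.5e-06, then -1.18 ± 0.15, adjusted p = 4.9e-05, then -0.58 ± 0.15, adjusted p = 0.0041. The last was -0.24 with equal sums and missed the threshold. KCNN4 (chr19:43766533-43780973), the calcium-gated potassium channel of Gardos, was at 2.35, 3.28 and 3.79 in WT against 0.372, 0.898 and 0.865 in HBBko libraries before differentiation. It was at 19, 18.5 and 21.4 in WT against 14.3, 11.7 and 12.1 in HBBko at 48 h and at 57.6, 62.3 and 59.2 in WT against 30.8, 31.9 and 32.3 in HBBko at 5 days. Each HBBko library of KCNN4 was below each WT library of its stage, with -1.27 ± 0.13, adjusted p = 1.3e-06, then -0.59 ± 0.13, adjusted p = 0.0037, then -0.89 ± 0.13, adjusted p = 1.9e-05. The undifferentiated levels of KCNN4 in HBBko cells lie below the added 1, so the fold change there understates the ratio of levels.

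ABCG2 (chr4:88090264-88231626), an efflux pump for porphyrins and drugs, was at 0.247, 0.589 and 0.75 in WT against 0.228, 0.106 and 0.0959 in HBBko libraries before differentiation. ABCG2 then stood at 2.02, 2.1 and 3.65 in WT against 1.08, 1.11 and 1.02 in HBBko at 48 h. By 5 days ABCG2 stood at 7.48, 8.32 and 9.82 in WT against 4.21, 3.41 and 3.78 in HBBko. The lines were apart at all 3 stages, with -0.41 ± 0.15, adjusted p = 0.038, then -0.77 ± 0.15, adjusted p = 0.0021, then -0.99 ± 0.15, adjusted p = 4e-05. Before differentiation the call ended without WT replicate 2, WT replicate 3, HBBko replicate 2 or HBBko replicate 3 (adjusted p up to 0.15), and the value without WT replicate 3 was -0.30. All undifferentiated levels of ABCG2 lie below the added 1, so the fold changes give no order of the ratios over the stages. SLC2A1 was at 77.3, 66 and 100.1 in WT against 52.6, 54.7 and 57.6 in HBBko libraries before differentiation. SLC2A1 then stood at 252, 261 and 335 in WT against 189, 206 and 215 in HBBko at 48 h. By 5 days SLC2A1 stood at 1615, 1464 and 1555 in WT against 1225, 1129.7 and 1179 in HBBko. All HBBko libraries of SLC2A1 were below all WT libraries, with -0.53 ± 0.12, adjusted p = 0.0017, then -0.46 ± 0.12, adjusted p = 0.011, then -0.39 ± 0.12, adjusted p = 0.011. For 48 h, the call ended without WT replicate 3 or HBBko replicate 1 (adjusted p up to 0.08), and the value without WT replicate 3 was -0.33. With equal sums the 5 d value of SLC2A1 was -0.05 and missed the threshold.

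**Figure D4:**
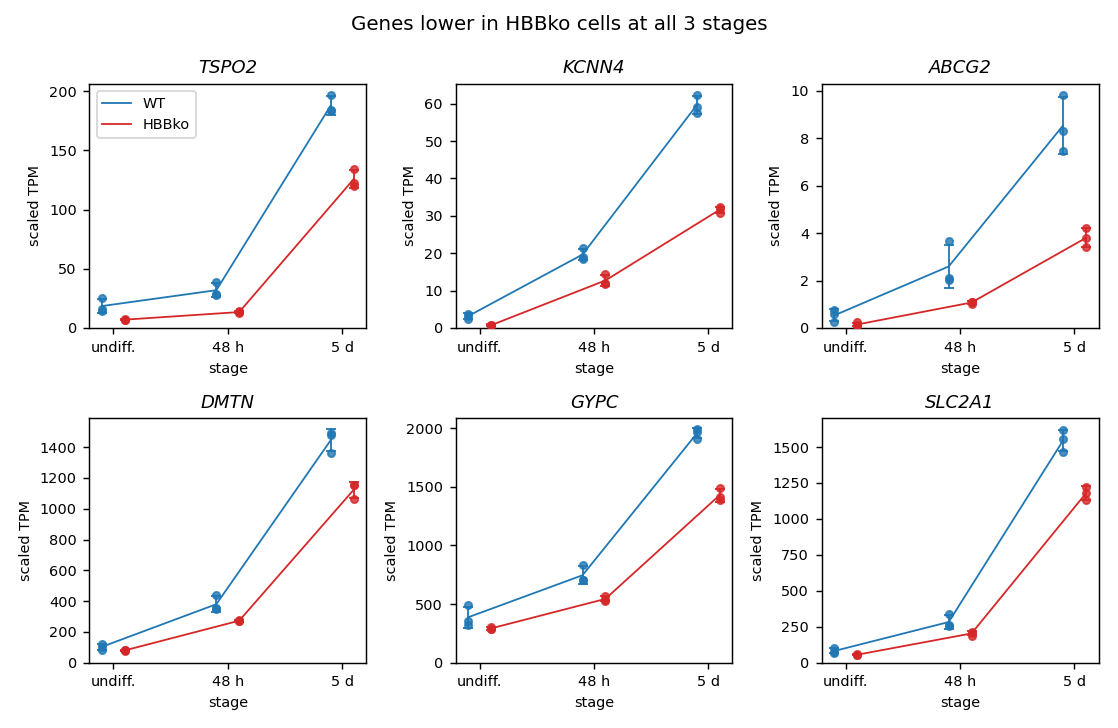
Scaled TPM (y axis) of 6 of the 8 genes that were lower in HBBko than in WT cells at all 3 stages (x axis); points are libraries, lines join group means and bars are the SD over 3 libraries. KCNN4 at 5 d stands at 59.7 in WT and 31.7 in HBBko cells. Of the genes shown only KCNN4 and ABCG2 were lower at 5 d under all 5 scalings.

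The 2 water channels were lower in HBBko cells at the first 2 stages and did not pass the limma test at 5 days. AQP1 (chr7:30911853-30925516), the water channel of the Colton blood group, was at 4.49, 5.41 and 10.5 in WT against 2.82, 2.45 and 2.64 in HBBko libraries before differentiation. AQP1 was at 134, 138 and 169 in WT against 82.4, 83.5 and 86.3 in HBBko at 48 h and at 405, 421 and 414 in WT against 472, 472 and 508 in HBBko at 5 days. HBBko libraries were the lower ones at the first 2 stages and the higher ones at 5 days, without overlap. The first 2 differences passed the test (-1.02 ± 0.17, adjusted p = 0.00018 and -0.79 ± 0.17, adjusted p = 0.0044) and the last did not (0.23 ± 0.17, adjusted p = 0.29). In the authors' deposited table for 5 days AQP1 was higher in HBBko cells (q = 9.9e-07). Of the words of AQP1, 26.4% also stand in another gene model. AQP1 had the largest rise of the 38 in the first step, 4.31 ± 0.17 in WT and 4.55 ± 0.17 in HBBko cells. AQP3, which also passes glycerol, was at 28.2, 24.2 and 28 in WT against 25.1, 19.4 and 20.8 in HBBko libraries before differentiation. AQP3 then stood at 50.3, 51.3 and 66 in WT against 35.6, 34.7 and 36 in HBBko at 48 h. By 5 days AQP3 stood at 89.4, 86.3 and 99.1 in WT against 93.9, 94.7 and 111 in HBBko. The lines overlapped before differentiation and at 5 days and were apart at 48 h. AQP3 was lower in HBBko at -0.29 ± 0.10, adjusted p = 0.031 and -0.63 ± 0.10, adjusted p = 0.00055 at the first 2 stages, with 0.12 ± 0.10, adjusted p = 0.36 at 5 days. Before differentiation the call ended without WT replicate 1, WT replicate 3, HBBko replicate 2 or HBBko replicate 3 (adjusted p up to 0.14).

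SLC14A1, the urea transporter of the Kidd blood group, was at 35.2, 34.6 and 35.3 in WT against 35.7, 36.6 and 31.7 in HBBko libraries before differentiation. SLC14A1 then stood at 18.4, 20.2 and 31.1 in WT against 15.5, 17.1 and 15.8 in HBBko at 48 h. By 5 days SLC14A1 stood at 169, 122 and 158 in WT against 104, 85.6 and 125 in HBBko. It fell in the first step (-0.61 ± 0.16 in WT and -1.06 ± 0.16 in HBBko cells) and rose in the second (2.66 ± 0.16 and 2.62 ± 0.16). The 48 h difference of SLC14A1 (-0.47 ± 0.16, adjusted p = 0.0497) was -0.24 (adjusted p = 0.29) without WT 48 h replicate 3, and the call held in 6 of 18 fits with 1 library left out (adjusted p up to 0.29). The 5 d difference was -0.51 ± 0.16, adjusted p = 0.013 with overlapping libraries, and the call ended without WT replicate 1 or HBBko replicate 2 (adjusted p up to 0.078). It was -0.17 with equal sums and missed the threshold. STOM, the raft protein stomatin, was at 73.6, 72.7 and 76.5 in WT against 74.1, 74.3 and 71.3 in HBBko libraries before differentiation. STOM then stood at 104, 106 and 132 in WT against 94.7, 96.8 and 92.9 in HBBko at 48 h. By 5 days STOM stood at 442, 406 and 449 in WT against 350.1, 325 and 339.5 in HBBko. STOM overlapped between the lines before differentiation and was lower in all HBBko libraries later, with -0.26 ± 0.07, adjusted p = 0.015 and -0.35 ± 0.07, adjusted p = 0.00037. For 48 h, the call ended without WT replicate 3 or HBBko replicate 3 (adjusted p up to 0.074), and the value without WT replicate 3 was -0.15. The 5 d value of STOM was -0.02 with equal sums and missed the threshold.

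ABCB6, a porphyrin transporter of the Langereis blood group, was the only one of the 38 that was higher in HBBko at all 3 stages, as 3.50% of all genes were. It was at 28, 28.6 and 28 in WT against 33.2, 31.9 and 36 in HBBko libraries before differentiation. ABCB6 then stood at 45.2, 41.2 and 45.8 in WT against 51.9, 52.8 and 53.7 in HBBko at 48 h. By 5 days ABCB6 stood at 103, 89.3 and 105 in WT against 119, 106 and 119 in HBBko. All HBBko libraries of ABCB6 were above all WT libraries of their stage, with 0.25 ± 0.07, adjusted p = 0.0057, then 0.26 ± 0.07, adjusted p = 0.012, then 0.21 ± 0.07, adjusted p = 0.012. The 5 d call ended when HBBko replicate 1 (adjusted p = 0.0528), HBBko replicate 3 (0.0547) or WT replicate 2 (0.084, with a value of 0.14) was left out, and the 48 h call at 0.06 without WT replicate 2. Of its words 91.4% also stand in the gene model AC068946.2, itself at 1.43 to 11.6 scaled TPM over all libraries. PIEZO1, the stretch-gated cation channel, averaged 93.5 ± 13.2, 119 ± 11.6 and 51.5 ± 2.61 in WT and 123 ± 6.14, 119 ± 3.78 and 50.8 ± 5.29 in HBBko cells; it was higher in undifferentiated HBBko cells (0.40 ± 0.10, adjusted p = 0.0032) and fell from 48 h to 5 days in both lines (-1.19 ± 0.10 and -1.21 ± 0.10). SLC29A1, the nucleoside transporter of the Augustine blood group, averaged 247 ± 36.1, 461 ± 17.4 and 519.7 ± 16.7 in WT and 198 ± 4.76, 435 ± 7.6 and 450.3 ± 14.3 in HBBko cells, and was lower in HBBko before differentiation (-0.31 ± 0.07, adjusted p = 0.0023) and at 5 days (-0.21 ± 0.07, adjusted p = 0.022; 0.13 with equal sums). At 5 days the call ended without WT replicate 2, WT replicate 3 or HBBko replicate 1 (adjusted p up to 0.077), and before differentiation the value without WT replicate 3 was -0.19 (adjusted p = 0.0025).

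Among the remaining surface proteins, ACHE, the acetylcholinesterase of the Yt blood group, was at 20.7, 17.9 and 23.3 in WT against 18.4, 16.1 and 17.9 in HBBko libraries before differentiation. ACHE then stood at 76.8, 76 and 83.3 in WT against 71.7, 64.3 and 69.9 in HBBko at 48 h. By 5 days ACHE stood at 140.2, 145 and 147 in WT against 172, 172 and 183 in HBBko. The lines overlapped before differentiation, every HBBko library of ACHE was the lower at 48 h, and every one was the higher at 5 days. ACHE differed by -0.22 ± 0.07, adjusted p = 0.024, then -0.19 ± 0.07, adjusted p = 0.08, then 0.28 ± 0.07, adjusted p = 0.0045, and before differentiation the call ended without WT replicate 3 or HBBko replicate 2 (adjusted p up to 0.13), with a value of -0.13 without WT replicate 3. ERMAP, the Scianna blood group protein, was at 81.5, 86.4 and 88.7 in WT against 68, 68.6 and 69.2 in HBBko libraries before differentiation. ERMAP then stood at 99.9, 102 and 118 in WT against 96.7, 98.8 and 99.9 in HBBko at 48 h. By 5 days ERMAP stood at 274, 249 and 269.8 in WT against 311, 285 and 314 in HBBko. ERMAP was lower in all HBBko libraries before differentiation and higher in all of them at 5 days, with -0.31 ± 0.06, adjusted p = 0.00048, then -0.11 ± 0.06, adjusted p = 0.21, then 0.20 ± 0.06, adjusted p = 0.01. The last was 0.16 (adjusted p = 0.056) without WT 5 d replicate 2. CD59, the anchored inhibitor of the complement pore, was at 145, 151 and 145 in WT against 162, 163 and 169 in HBBko libraries before differentiation. CD59 then stood at 142, 143 and 143 in WT against 128, 132 and 135 in HBBko at 48 h. By 5 days CD59 stood at 164, 167 and 164 in WT against 138, 143 and 147 in HBBko. CD59 went the other way: it was higher in HBBko before differentiation (0.16 ± 0.04, adjusted p = 0.0021) and lower at 48 h (-0.12 ± 0.04, adjusted p = 0.038) and 5 days (-0.21 ± 0.04, adjusted p = 0.00018), but 0.02 (adjusted p = 0.73) and 0.13 (adjusted p = 0.03) at the last 2 stages with equal sums. For 48 h, the call held in 12 of 18 fits with 1 library left out (adjusted p up to 0.16).

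BCAM was at 0.226, 0.106 and 0.14 in WT against 0.0701, 0.444 and 0.075 in HBBko libraries before differentiation. BCAM then stood at 0.77, 0.771 and 0.86 in WT against 0.185, 0.354 and 0.202 in HBBko at 48 h. By 5 days BCAM stood at 1.75, 2.64 and 1.3 in WT against 0.889, 1.15 and 0.852 in HBBko, near the floor of the filter throughout. The later HBBko libraries of BCAM were below the WT ones, with -0.53 ± 0.14, adjusted p = 0.016 and -0.54 ± 0.14, adjusted p = 0.0047, and at 48 h the call ended without WT replicate 3, HBBko replicate 1 or HBBko replicate 3 (adjusted p up to 0.064). BSG averaged 836 ± 127, 1048 ± 46.6 and 2030.1 ± 77.3 in WT and 759 ± 18.4, 876 ± 17.5 and 1732 ± 81.9 in HBBko cells, and was lower in HBBko at 48 h (-0.26 ± 0.08, adjusted p = 0.03) and at 5 days (-0.23 ± 0.08, adjusted p = 0.021; 0.11 with equal sums). For 48 h, the call held in 13 of 18 fits with 1 library left out (adjusted p up to 0.13), and at 5 days the call ended without WT replicate 3, HBBko replicate 1 or HBBko replicate 2 (adjusted p up to 0.077). SEMA7A, the semaphorin of the John Milton Hagen blood group, averaged 41.4 ± 3.79, 66.9 ± 2.07 and 75.1 ± 6.86 in WT and 53.5 ± 2.66, 68.9 ± 1 and 71.1 ± 7.6 in HBBko cells, and was higher in HBBko before differentiation (0.36 ± 0.08, adjusted p = 0.0014).

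Read by gene over the 3 stages, 30 of the 38 were lower in HBBko at 1 or more stages and 11 were higher at 1 or more, beside 39.6% and 41.2% of all genes tested. ANK1, DMTN, TMOD1, TSPO2, GYPC, SLC2A1, KCNN4 and ABCG2 were lower at all 3 (8 genes, beside 4.15% of all genes), 14 more at exactly 2, and 8 at exactly 1. ADD2, GYPB, GYPE, KEL, CD59, ACHE and ERMAP passed the test in both directions (7 genes, beside 7.98% of all), and SPTB, EPB41, RHAG and RHD at no stage. Leaving out each of the 18 libraries in turn, 22 of the 29 genes that differed in undifferentiated cells passed every time, 9 of 19 at 48 h and 15 of 25 at 5 days. Among calls that ended without WT 48 h replicate 3, the 48 h values without it were -0.15 for ADD1, -0.19 for TMOD1, -0.22 for BSG, -0.11 for CD59 and -0.51 for BCAM. Among those that ended without WT undifferentiated replicate 3, the undifferentiated values were -0.12 for ADD1 and -0.26 for AQP3. Of the 8 genes lower at all 3 stages, ANK1, TSPO2 and KCNN4 passed at every stage each time. KCNN4 alone of the 8 was also lower at all 3 stages under all 5 scalings.

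Whether the genotype difference itself changed between stages was tested with an interaction term. From undifferentiated cells to 48 h it changed for 6 of the 38, beside 13.2% of all genes (7.67% upwards and 5.51% downwards). It rose for GYPE (0.88 ± 0.21, adjusted p = 0.014), KCNN4 (0.68 ± 0.18, adjusted p = 0.021), ADD3 (0.50 ± 0.13, adjusted p = 0.021) and TMOD1 (0.46 ± 0.11, adjusted p = 0.016), and it fell for EPB42 (-0.36 ± 0.11, adjusted p = 0.036) and CD59 (-0.28 ± 0.05, adjusted p = 0.0036). TMOD1, GYPE and CD59 passed with any 1 library left out, KCNN4 in 15 of 18 such fits, ADD3 in 14 and EPB42 in 9. Under all 5 scalings GYPE, ADD3, TMOD1 and EPB42 passed, while KCNN4 and CD59 did not. The first term of KCNN4 rests on low values, and with 5 in place of 1 added before the logarithm its adjusted p was 0.87. From 48 h to 5 days the difference changed for 9 of the 38, all upwards, beside 24.6% of all genes (11.5% upwards). These were AQP1 (1.02 ± 0.24, adjusted p = 0.0059), GYPB (0.85 ± 0.28, adjusted p = 0.034), AQP3 (0.75 ± 0.15, adjusted p = 0.0014), ADD2 (0.73 ± 0.10, adjusted p = 5.2e-05), KEL (0.64 ± 0.14, adjusted p = 0.003), TSPO2 (0.60 ± 0.21, adjusted p = 0.0496), ACHE (0.48 ± 0.11, adjusted p = 0.0035), ERMAP (0.31 ± 0.08, adjusted p = 0.012) and ADD1 (0.24 ± 0.07, adjusted p = 0.013). All but TSPO2 passed under all 5 scalings. With any 1 library left out all but TSPO2 and GYPB passed, which did so in 5 and 8 of 18 such fits. Without WT 48 h replicate 3 GYPB was at 0.76 (adjusted p = 0.083) and TSPO2 at 0.45 (adjusted p = 0.13).

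For the 7 genes that passed in both directions, the 5 d difference was also set against the undifferentiated one, which share no library; this comparison was added after the values were seen. The change was 1.38 ± 0.28 for GYPB (adjusted p = 0.00077), 1.32 ± 0.21 for GYPE (0.00012), 1.00 ± 0.10 for ADD2 (1.1e-06) and 0.98 ± 0.14 for KEL (3.9e-05). It was 0.51 ± 0.08 for ERMAP (adjusted p = 0.00014), 0.50 ± 0.11 for ACHE (0.0011) and -0.37 ± 0.05 for CD59 (3.6e-05). The picking used these same libraries, so the refits below are no separate support either. Over the list the difference changed upwards for 14 genes and downwards for 7, beside 45.0% of all genes (23.5% and 21.5%). Under the other 4 scalings all but CD59 passed each time, and CD59 was at -0.08 (adjusted p = 0.35) with equal sums. Without WT undifferentiated replicate 3 the 7 values were 1.05, 1.06, 0.90, 0.80, 0.48, 0.42 and -0.36, all past the threshold. In the authors' deposited table for undifferentiated cells GYPB (q = 0.11), KEL (0.063), ACHE (0.23) and CD59 (0.21) were not past a q of 0.05. ADD2 (q = 0.016), GYPE (0.012) and ERMAP (0.0016) were lower there.

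**Figure D5:**
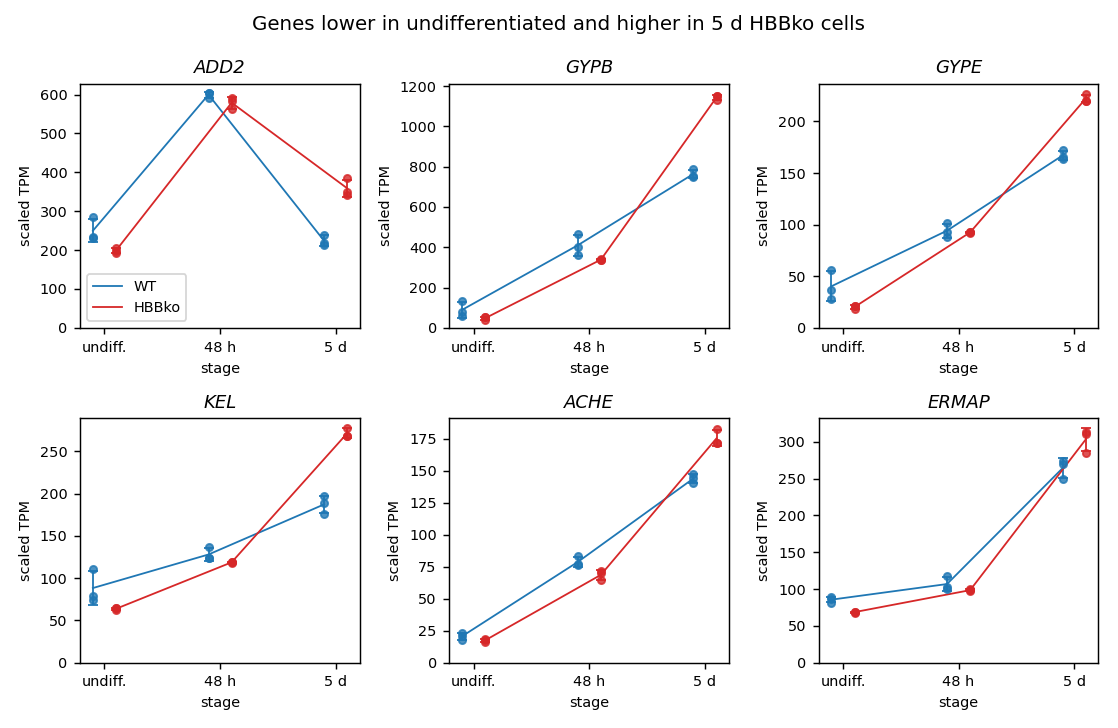
Scaled TPM (y axis) of the 6 genes that were lower in undifferentiated and higher in 5 d HBBko cells, by stage (x axis); points are libraries, lines join group means and bars are the SD over 3 libraries. GYPB at 5 d stands at 1144 in HBBko and 764 in WT cells, and ADD2 falls after 48 h in both lines.

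The authors' deposited tables of their own HBBko against WT tests list all 38 genes. In the authors' deposited table for undifferentiated cells 14 were lower and 2 higher at a q value under 0.05, beside 25.0% of all genes listed there. For 48 h the authors' deposited table gave 22 lower and 1 higher, beside 29.3%, and at 5 days 19 lower and 9 higher, beside 43.3%. Of the genes that passed here, 16 of 29, 17 of 19 and 24 of 25 also passed in the authors' deposited tables in the same direction, and no gene passed in opposite directions.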

How the data were processed

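RNA of 18 HUDEP-2 libraries (6 groups of 3) was extracted with RNeasy columns and sequenced from TruSeq RNA libraries, per the labels' protocols. The authors used kallisto, sleuth and hg38, per the submitters' processing notes; their versions and settings are not given in the sources used here. The authors deposited a table of TPM that had been scaled between libraries by an unstated step, used here as a signal that is not a count, so that library sums differ and sequencing depth is unknown. The design written for these data assumed plain TPM, and the same log2 test was kept. The authors' deposited tables of their own tests give p-values, q values and log2 fold changes, on a log2 scale per the file headers, of which the q value and the sign of the fold change were used.

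Genes at 1 or more in at least 3 libraries were tested with limma 3.58.1 in R 4.3.3 on log2(value + 1), with a mean per group over all 18 libraries, a trended prior and 12 residual degrees of freedom, and 2-sided p-values were adjusted over 12005 genes by Benjamini and Hochberg at 0.05. There were 9 comparisons, and 1 was added after the values were seen. The log2 fold change understates changes of low genes. An exact permutation test of 3 against 3 libraries cannot go below 0.1 and was not used. Alternatives were other pseudocounts, filters and scalings, library weights, a replicate block, each library left out, and fits of the groups compared alone. Leaving out both WT libraries that stand apart was chosen after seeing the data, as was a count without a gene that reached the filter's value at 1 stage alone.

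The groups share replicate numbers, which the labels do not tie to a culture or day. Deviations of same-numbered libraries from their group means correlated at -0.103 to 0.194 over 45 pairs, and over 0.1 in all pairs of 3 comparisons (HBBko against WT undifferentiated, at 0.121 to 0.173, and at 5 d, at 0.131 to 0.18, and the first WT step, at 0.102 to 0.194). There a value with the replicate block is printed beside each call it changes.

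All 38 genes are accounted for by role. Values per library are given for the 8 genes past the threshold with the largest change in each comparison and for those past it in both directions or at all 3 stages, and means for the others. The genes and lists were chosen with earlier results of these data known. Promoter sequences came from RefSeq (GRCh38.p14) and were searched with Python 3.11.15 and Biopython 1.88. Shared words were counted in GENCODE 29 transcripts.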

Additional observations from a re-analysis of the deposited data

Results flagged for a closer look

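The results below are listed because the difference between HBBko and WT cells itself changed between stages, by an interaction term of the limma fit with p adjusted over 12005 genes. Such a change was called for 6 of the 38 genes up to 48 h, beside 13.2% of all genes, and for 9 of the 38 from 48 h to 5 days, beside 24.6%. From undifferentiated cells to 48 h the log2 difference changed by 0.88 for GYPE, 0.68 for KCNN4, 0.50 for ADD3 and 0.46 for TMOD1, and by -0.36 for EPB42 and -0.28 for CD59. From 48 h to 5 days it changed by 1.02 for AQP1, 0.85 for GYPB, 0.75 for AQP3, 0.73 for ADD2 and 0.64 for KEL. In the same step it changed by 0.60 for TSPO2, 0.48 for ACHE, 0.31 for ERMAP and 0.24 for ADD1. The TSPO2 and GYPB terms passed in 5 and 8 of 18 fits with 1 library left out.

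Between undifferentiated cells and 5 days, a contrast added after the values were seen, the difference changed by 1.38 for GYPB, 1.32 for GYPE, 1.00 for ADD2, 0.98 for KEL, 0.51 for ERMAP, 0.50 for ACHE and -0.37 for CD59. These 7 genes had been picked because they passed the test in both directions, which largely fixed that they would pass here. In that contrast 21 of the 38 passed, beside 45.0% of all genes.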

How the results depend on the processing

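Counts of the 38 genes past the threshold moved by over 1.5 times in these cases. In undifferentiated cells 16 passed, in place of 29, with the 6 libraries compared fitted alone, and 16 by the q value of the authors' deposited table. At 48 h, where 19 passed, 11 did without WT replicate 3, 12 when HBBko replicate 1 was left out and 12 when HBBko replicate 3 was. For the change of the genotype difference up to 48 h, 6 became 3 with no filter on low values, 3 without WT 48 h replicate 2, 11 with equal sums, 11 without WT undifferentiated replicate 1, and 10 without both WT libraries that stand apart. From 48 h to 5 days 9 became 15 with equal sums. With 1 library left out the counts ranged from 24 to 29, 11 to 23 and 19 to 27 for the genotype differences at the 3 stages, 34 to 35 and 35 to 38 for the WT steps, 33 to 35 and 36 to 36 for the HBBko steps, and 3 to 11 and 7 to 11 for the 2 changes of the genotype difference.

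Directions turned with equal sums for the genotype difference of CD59 at 48 h (0.0246) and, at 5 days, of ANK1 (0.10), EPB42 (0.0658), ADD3 (0.069), TMOD1 (0.10), CD59 (0.13), BSG (0.11), MPP1 (0.0822), SLC29A1 (0.13) and ICAM4 (0.14). They also turned for ADD1 in the first WT step (-0.00388), for ADD1 (-0.37), ADD3 (-0.17), KEL (-0.10), CD59 (-0.44) and SLC29A1 (-0.47) in the second, and for ADD3 (-0.0141), CD47 (-0.18) and CD59 (-0.33) in the second HBBko step. In the second WT step ICAM4 was at 0.0205 with median-of-ratios scaling and SLC29A1 at -0.0848 with quantile normalization. The cause was not tested.

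With the replicate number as a block, 30, 20 and 26 genes passed for the genotype differences, 35 and 37 in the WT steps, 35 and 36 in the HBBko steps, and 8 and 9 for the changes of the genotype difference. Where the numbers do not pair the libraries, the block brought past the threshold ACHE at 48 h (-0.19, adjusted p = 0.028), SEMA7A in the second WT step (0.16, adjusted p = 0.031), and BCAM (-0.57, adjusted p = 0.042) and SEMA7A (-0.32, adjusted p = 0.031) in the change up to 48 h. It changed no other call beside those printed with the results. Depth is unknown, so values near 0, such as those of BCAM and undifferentiated KCNN4, carry a counting error that could not be given.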

Other observations

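Genes of the same systems outside the 38 were read from 3 further lists under the deposited scaling with limma and p adjusted over 12005 genes; the genes named were chosen after their values were seen. Of all genes tested 22.3% were lower and 20.9% higher in HBBko cells before differentiation, 9.21% and 9.52% at 48 h, and 24.8% and 26.5% at 5 days, and no list is called different from them. Of 24 further skeleton and actin genes 19 were tested, and in HBBko cells 6 were higher and 6 lower before differentiation, 1 and 5 at 48 h, and 2 and 9 at 5 days, with medians of 0.02, -0.15 and -0.26. At 5 days VCL, the vinculin of cell adhesions, averaged 3.25 scaled TPM in HBBko and 13.2 in WT cells (-1.73 ± 0.09 SE, adjusted p = 3.2e-10). EZR, the ezrin that links actin to the membrane, averaged 11.2 and 25.1 (-1.12 ± 0.09, adjusted p = 3e-08), and TPM4, a tropomyosin, averaged 3.71 and 10.4 (-1.26 ± 0.11, adjusted p = 1.1e-07). The libraries of the 2 lines did not overlap for these 3 genes at 5 days.

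Of 31 further membrane transporters 30 were tested, and in HBBko cells 9 were higher and 12 lower before differentiation, 4 and 7 at 48 h, and 4 and 14 at 5 days, with medians of 0.04, 0.03 and -0.23. SLC6A9, the glycine transporter, was lower at all 3 stages (-1.72 ± 0.15, adjusted p = 3.2e-07, then -1.03 ± 0.15, adjusted p = 0.00018, then -0.64 ± 0.15, adjusted p = 0.0018), while its WT level went from 71.5 to 691 scaled TPM. FLVCR1, the heme exporter, was higher at all 3 (0.66 ± 0.15, adjusted p = 0.0016, then 0.55 ± 0.15, adjusted p = 0.014, then 1.33 ± 0.15, adjusted p = 1.2e-06), with 5.15 in HBBko and 1.43 in WT cells at 5 days. Of 22 further blood group and surface genes 20 were tested, and 12 were lower before differentiation, 11 at 48 h, and 10 at 5 days, when 5 were higher, with medians of -0.21, -0.25 and -0.20. GBGT1, the Forssman synthase, was lower before differentiation (-0.87 ± 0.07, adjusted p = 2e-07), and CD44, the Indian blood group protein, was lower at 5 days (-0.80 ± 0.06, adjusted p = 3e-08).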
